A study of Homo sapiens with 18 samples.

Results

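The BEX (brain expressed X-linked) and TCEAL (transcription elongation factor A like) genes are a family of small genes on the long arm of the human X chromosome. The 10 genes described here are BEX1, BEX2, BEX3, BEX4, BEX5, TCEAL1, TCEAL3, TCEAL4, TCEAL8 and TCEAL9, matched by gene symbol and Entrez identifier, and 8 of them are listed in at least 1 of the 3 deposited tables, out of 19401 genes listed in all. They were chosen by their knockout-against-WT changes in those tables, so the choice itself is no finding, and those changes are not printed here. The pooled means used below come from the same libraries that the choice rests on. What is described is how strongly each gene was read in these cells, how the level differed from table to table, and which promoter sequence some of the genes share.

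The study measured RNA by RNA-seq in MCF10A, an immortalized line of human breast epithelium that does not form tumours, after deletion of CBFB or RUNX1. CBFB does not bind DNA itself but pairs with RUNX transcription factors, of which RUNX1 is the one under study. The 18 libraries fall into CBFB_KO (3) with CBFB_WT (3), and RUNX1_KO1 (4) and RUNX1_KO2 (4) with RUNX1_WT (4). All were untreated cells kept at low passage. The labels name 1 CRISPR knockout for CBFB and 2 for RUNX1. Each knockout group is taken to be a single clone, so that clone and deletion cannot be told apart within a group. Each table gives, for each gene, 1 mean of normalized read counts over knockout and WT libraries together, which is 6 libraries for CBFB and 8 for each RUNX1 clone. No value per library or per group was used, so there is no replicate error for any value below and no test between groups. Brackets hold a 95% Poisson interval on the mean multiplied by the number of libraries, which covers counting error only.

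The means summed to 20214423 in the CBFB table, 18050386 in the RUNX1_KO1 table and 16467400 in the RUNX1_KO2 table, over 18526, 18517 and 18117 genes. The mammary and basal epithelial markers KRT5, KRT14, KRT17, TP63 and CDH3 were all listed in the CBFB and RUNX1_KO1 tables with means of at least 953.2, and the 4 listed in the RUNX1_KO2 table had means of at least 729.9. PECAM1 and PTPRC, which mark vessel and blood cells, had means of at most 0.8699 where they were listed. The targeted genes had pooled means of 897.1, 1058.1 and 930.9 for CBFB and of 1606.4, 922.2 and 839.1 for RUNX1 in the CBFB, RUNX1_KO1 and RUNX1_KO2 tables. These mix knockout with WT libraries and therefore check no label. In bulk RNA, fewer cells that express a gene and less RNA per cell cannot be told apart.

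As background, the BEX proteins are small adaptor-like proteins first described in brain. BEX3 binds the p75 neurotrophin receptor and has been tied to cell death signalling, and its older name NGFRAP1 records that link. TCEAL proteins resemble part of the elongation factor TFIIS, which helps a stalled RNA polymerase II to restart. Both groups arose in placental mammals, lie beside the ARMCX and GPRASP genes, and are known for promoters that carry a common E-box element.

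A sequence shared between the promoters was sought first, because the genes were chosen together and the RUNX proteins act at promoters and enhancers. Promoter windows came from RefSeq on GRCh38.p14 and ran from 250 bases before to 50 bases after each annotated start. All 10 genes had a window. The longest exact run present in the windows of at least 5 of them was the 11-base CTCACGTGACC, and no other run of that length was shared so widely. It was held by BEX1, BEX3, TCEAL1, TCEAL3 and TCEAL8. The 5 sites are shown with 12 bases on either side, on the strand of the gene, and the capitals mark the shared run.
BEX1, chrX:103064198-103064232, minus strand: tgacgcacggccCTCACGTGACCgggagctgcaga
BEX3, chrX:103376477-103376511, plus strand: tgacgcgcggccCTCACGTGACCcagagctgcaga
TCEAL1, chrX:103628905-103628939, plus strand: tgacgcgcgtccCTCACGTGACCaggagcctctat
TCEAL3, chrX:103607869-103607903, plus strand: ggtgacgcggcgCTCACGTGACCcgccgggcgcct
TCEAL8, chrX:103255166-103255200, minus strand: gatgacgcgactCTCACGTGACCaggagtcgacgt

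For the remaining genes the longest piece of the run found on either strand is shown in capitals, with the same flanks.
BEX4, chrX:103215077-103215109, plus strand: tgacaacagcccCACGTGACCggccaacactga
BEX2, chrX:103310991-103311021, minus strand: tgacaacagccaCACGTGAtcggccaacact
BEX5, chrX:102156009-102156040, minus strand: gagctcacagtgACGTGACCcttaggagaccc
TCEAL4, chrX:103585492-103585523, plus strand: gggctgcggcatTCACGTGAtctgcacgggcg
TCEAL9, chrX:103356460-103356489, plus strand: cgtagatctcatGTGACCaggagtcgacgt

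The pieces were 9 bases long in BEX4, 8 in BEX5 and TCEAL4, 7 in BEX2 and 6 in TCEAL9. Any piece down to 5 bases was accepted, and pieces of 5 bases were found in some ARMCX and GPRASP genes. The share of all windows that hold such short pieces was not counted, so a shared element is not read from them. Counted in bases from the annotated start, the 11-base run lay from -49 to -39 in both BEX1 and BEX3, from -58 to -48 in TCEAL1, from -82 to -72 in TCEAL3 and from -33 to -23 in TCEAL8. In BEX4 the shorter match spanned the annotated start itself. Of all 35116 windows, 54 held the full run on either strand (0.154%), and counted by gene 53 of 27305 did (0.194%). The count of 5 members was fixed by the way the run was sought and is given as a description. Outside the 10 genes, the run was present in TCEAL2, 1 of the 3 other TCEAL genes with a window, and in ARMCX2 and ARMCX4, 2 of 8 ARMCX and GPRASP genes with one.

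**Figure D1:**
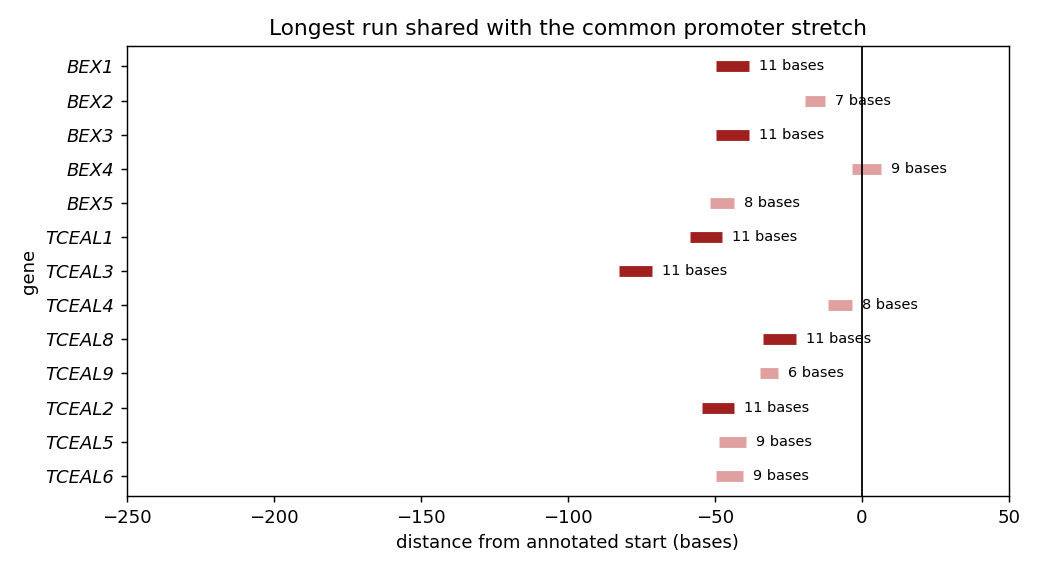
Each bar is the longest piece of the 11-base run found in the promoter window of a BEX or TCEAL gene, placed by its distance in bases from the annotated start (vertical line at 0). Dark bars hold all 11 bases and light bars hold the number of bases printed beside them. Most bars lie in the last 100 bases before the start, and the BEX4 bar crosses it.

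The 6-base core CACGTG, the letters of the E-box that factors such as MYC, MAX and USF bind, was present in 8 of the 10 genes. These were all but BEX5 and TCEAL9, and a gene counted if any of its windows held the core. The core was also present in 3 of 3 other TCEAL genes and in 5 of 8 ARMCX and GPRASP genes, against 7.26% of all windows and 8.77% of all genes. The core lies inside the 11-base run and was taken from it, so the 5 members that hold the run were bound to hold the core. The count of 8 was thus partly fixed by the search and is given as a description. The RUNX motif, searched as TGTGGT or TGCGGT on both strands, was present in the windows of 3 of 10 genes, BEX3, BEX5 and TCEAL3, against 19.6% of all windows and 22.9% of genes. With TGTGGT alone, 1 of the 10 genes held it. Of all windows 13.1% did, and the share of all genes, which would be the like measure, was not counted for that setting. The 3 matches follow, with the motif in capitals.
BEX3, chrX:103376266-103376295, plus strand: gggcaaactccaACCGCAgagcagtgatgc
BEX5, chrX:102156129-102156158, minus strand: tggatagtagccTGTGGTagtggtggagaa
TCEAL3, chrX:103607928-103607957, plus strand: gcccgcccgcccTGCGGTccggtcctggcg

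The BEX3 match is read on the opposite strand and belongs to another of its 3 annotated starts than the 11-base run does. A match in a window is a run of letters, and no RUNX1 binding was measured in these libraries.

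BEX3 was the only BEX gene listed with a mean above 100. Its authors' mean was 143.8 [134.4 to 153.8] in the CBFB table, 185.2 [175.9 to 194.9] in the RUNX1_KO1 table and 174.7 [165.6 to 184] in the RUNX1_KO2 table. Because knockout and WT groups are of equal size, neither group of a table can have had a mean above 2 times the pooled one, which for BEX3 is 287.6, 370.4 and 349.3. BEX5 had a mean of 6.527 [4.622 to 8.886], 12.35 [10.06 to 15.07] and 14.73 [12.21 to 17.66] in the same order, equal to about 39, 99 and 118 normalized reads over all libraries of a table. BEX2 was listed in the RUNX1 tables alone, at 0.7638 and 0.7207, or about 6 normalized reads in each. BEX1 and BEX4 were listed in none of the 3 tables analysed, so no level can be given for them. A gene that is not listed need not be low, since KRT14 and ELOB, with means of 9514.6 and 2985.8 in the RUNX1_KO1 table, were not listed in the RUNX1_KO2 table.

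The TCEAL members were all listed in all 3 tables. The mean of TCEAL4 was 1049.5 [1023.7 to 1075.7] in the CBFB table, 1564.0 [1536.7 to 1591.6] in the RUNX1_KO1 table and 1725.0 in the RUNX1_KO2 table. TCEAL9, listed under its older name WBP5 in the CBFB table, had means of 683.1, 829.9 and 827.5. TCEAL8 had 584, 514.9 and 489.5, and was the only one of the 6 members above a mean of 100 whose mean was lower in both RUNX1 tables than in the CBFB table. These means are not on a common scale. After the centring described below, the RUNX1_KO1 and RUNX1_KO2 ratios of TCEAL8 to the CBFB table were 1.033 and 1.062, so it was not lower. TCEAL3 stood at 234.1, 326.1 and 364.9 and TCEAL1 at 149.9, 199.2 and 167.6.

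**Figure D2:**
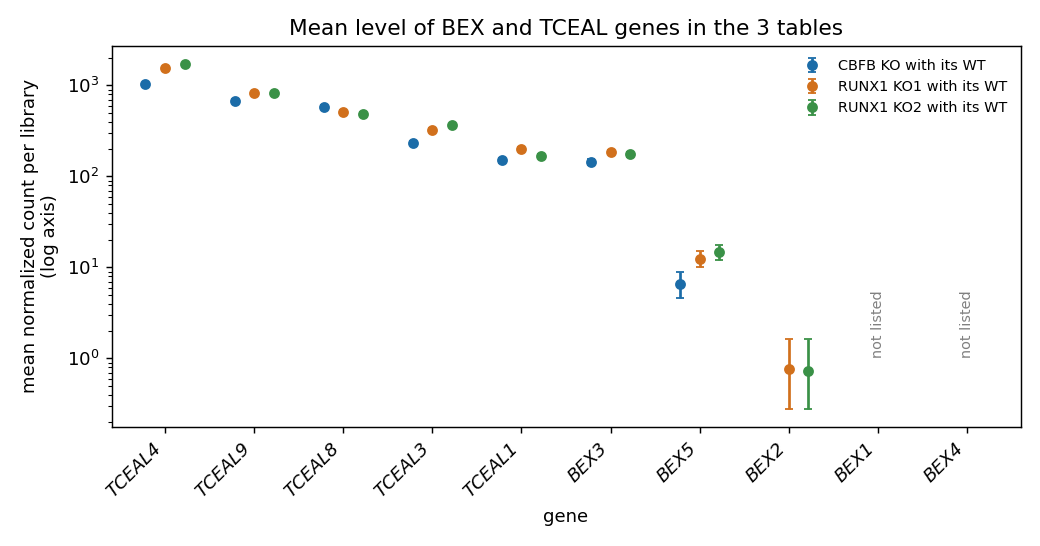
Points give the authors' mean normalized count per library (log axis) of each of the 10 genes in each table, with bars for the 95% counting interval, which are smaller than the point for the 6 highest genes. Those 6 lie between 143.8 and 1725.0, BEX5 between 6.527 and 14.73 and BEX2 below 1, while BEX1 and BEX4 were not listed.

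To set the levels of different genes side by side, means were expressed as normalized counts per 1000000 of the table's sum and per kilobase of the longest GENCODE 29 transcript, called the per-length level below. On that scale TCEAL4 stood at 33.05, 55.15 and 66.68 in the CBFB, RUNX1_KO1 and RUNX1_KO2 tables, at percentiles 88.65, 93.24 and 94.48 of the genes of each. TCEAL8 followed in the CBFB table at 23.64 and TCEAL9 in the RUNX1 tables at 23.72 and 25.93. The distance between these last 2 genes was small in the RUNX1 tables, where TCEAL8 stood at 23.34 and 24.33, and with no value per library it cannot be said whether they differ beyond the spread. Next came TCEAL3 (9.486, 14.8 and 18.15), BEX3 (7.724, 11.14 and 11.52) and TCEAL1 (6.176, 9.187 and 8.475), in that order in each table. BEX5 stood at 0.3755, 0.7954 and 1.04, and BEX2 at 0.03929 and 0.04064 in the RUNX1 tables. The median gene stood at 3.611, 3.189 and 3.044, so that 6 members were above it in each table. Without the division by length, 3 members were above the median mean in the CBFB table and 4 in each RUNX1 table. The order of TCEAL8 and TCEAL9 also depends on the length used. With the median transcript length, TCEAL9 stood at 32.71, 44.51 and 48.64. TCEAL8 then stood at 25.55, 25.22 and 26.28, below TCEAL9 in every table.

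Of the other TCEAL genes, those listed had means under 10. TCEAL6 had means of 3.708, 4.956 and 6.246. TCEAL2 was listed in the CBFB table alone, at 0.3074, and TCEAL5 in the RUNX1 tables alone, at 0.2479 and 0.5716, while TCEAL7 was listed in none. Some of these genes share sequence, which limits how well reads can be told apart. Of the 50-base stretches of the TCEAL3 transcript, 18.3% also occur in another gene, 15.1% in TCEAL6 and 6.06% in TCEAL5, and of those of TCEAL6 29.5% do. BEX1 shares 3.19% with BEX2, and TCEAL1 shares 2.69% with TCEAL3. BEX3, BEX5, TCEAL8 and TCEAL9 shared none with the GENCODE release 29 transcripts of other genes. In each case the stretches were those of the gene's longest coding transcript. TCEAL4 shared 1.38%, all with TCEAL2. TCEAL4, TCEAL8 and TCEAL9 each have an annotated pseudogene, on chromosomes 13, 3 and 20. How reads matching those pseudogenes, if any, were counted is not given in the sources used here.

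Along the X chromosome the well-read members stand at 1 end of the family's stretch. Of the 27 protein-coding genes in order from TCEAL2 to TCEAL1, the last 10 hold TCEAL8, TCEAL9, BEX3, TCEAL4, TCEAL3 and TCEAL1, the 6 members above the median level. BEX2, TCEAL5, TCEAL7 and RAB40A lie among them and were below the median level where they were listed. BEX5, in position 3 of the order, lies apart from the other members. Of the 13 other protein-coding genes in the stretch that belong to neither family, 9 were listed in each table and 1 was above the median level, the read-through ARMCX5-GPRASP2, at a per-length level of 5.455, 5.698 and 5.53, which overlaps ARMCX5 and GPRASP2. By the mean without division by length, ARMCX5 was above the median gene in each table and the read-through was below it.

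**Figure D3:**
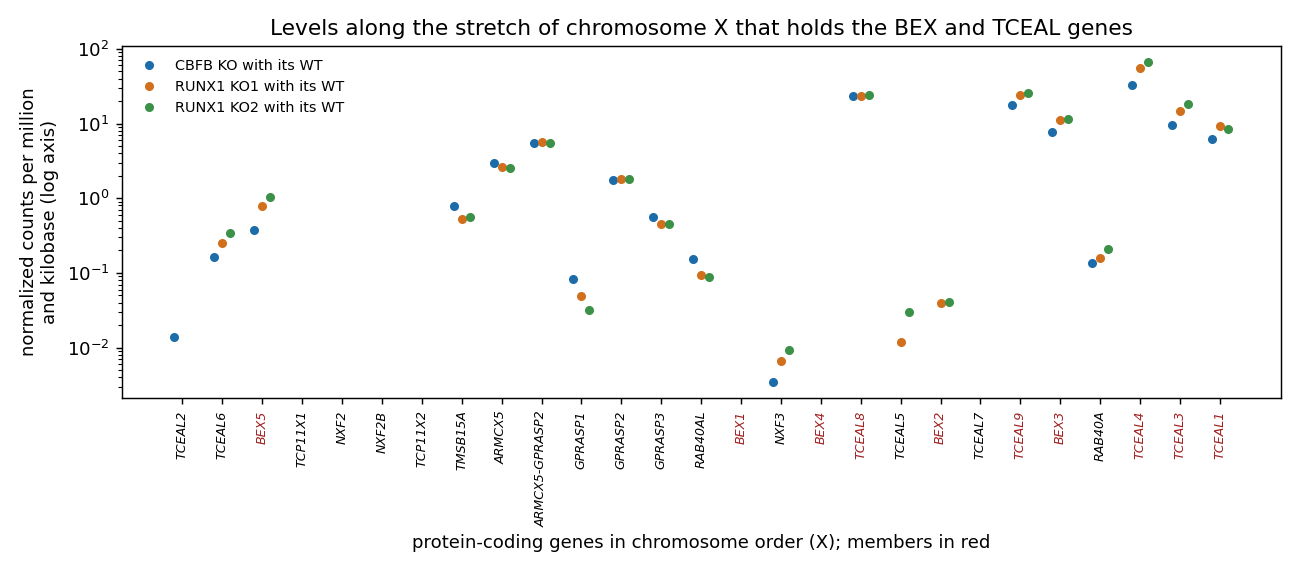
The horizontal axis lists the 27 protein-coding genes from TCEAL2 to TCEAL1 in chromosome order, with the 10 members in red, and the vertical axis gives the per-length level (normalized counts per 1000000 and kilobase, log axis) in each table. Gaps are genes that were not listed. TCEAL8, TCEAL9, BEX3, TCEAL4, TCEAL3 and TCEAL1 stand above the genes around them.

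Genes tied to the family by position or by function were read as follows. Of the 9 ARMCX and GPRASP genes, 6, 5 and 5 were listed in the CBFB, RUNX1_KO1 and RUNX1_KO2 tables and 0 were above the median level, with means of at most 274.2. That count depends on the division by length. By the mean alone ARMCX5, at 274.2, 216.6 and 196, was above the median gene, at 243.7, 210.4 and 186.7. Of 13 genes of the p75 neurotrophin receptor system, which includes the partner BEX3 is named for, 10, 10 and 9 were listed and 5, 4 and 4 were above the median level. MAGED1, an adaptor of that receptor, was highest, at a per-length level of 13.98, 10.91 and 11.55, followed by the kinase RIPK2 at 10.43, 10.69 and 11.04. NGFR, the p75 receptor itself, had authors' means of 27.08, 13.28 and 14.28. Of 6 genes of the elongation factors TFIIS and elongin, 6, 6 and 5 were listed and 4, 4 and 3 were above the median level. TCEA1, the TFIIS gene most widely expressed, stood at 41.25, 29.18 and 27.41, above TCEAL4 in the CBFB table and between TCEAL4 and TCEAL9 in both RUNX1 tables.

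The means of the 2 RUNX1 tables were set against each other because they carry different clones with a shared label for the WT. Ratios were divided by the median ratio of all genes, which was 0.9329 before that (log2 -0.10), and were read only where both means were at least 10, over 13123 genes. The tables were normalized separately and their WT libraries are taken to be the same 4 from the labels, which was not tested. If they are, the same WT libraries enter both means and draw each ratio toward 1. A ratio, and the limit set on it below, is then of pooled means and tends to understate the difference between the clones. The ratio of the RUNX1_KO2 to the RUNX1_KO1 table was 1.279 for BEX5, 1.199 for TCEAL3, 1.182 for TCEAL4, 1.069 for TCEAL9, 1.019 for TCEAL8, 1.011 for BEX3 and 0.9021 for TCEAL1. Past a log2 ratio of 0.32 in either direction, 1 of 7 members was higher, against 6.86% of all genes, and 0 of 7 were lower, against 1.2%. The 1 member was BEX5. Its counting intervals overlap between the tables, but they were taken before centring and the tables are taken to share WT libraries. They therefore give no error for the ratio. Without the centring, with scaling by the table sums, with a minimum mean of 100 or a 1.5-fold limit, no member was past the limit. The share of all genes is not given for those settings. The median of the members was 1.069, and the middle 50% of all genes ran from 0.9376 to 1.09. The means hold the knockout libraries whose changes chose the members, so these counts too are a description from which nothing is read.

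Against the CBFB table, the 6 members with a mean of at least 10 in every table had ratios above that of the median gene in both RUNX1 tables. The genes were chosen by changes in the knockout libraries that these means contain, so the counts below are partly fixed by that choice and nothing is read from them against the share of all genes. After the same centring, the RUNX1_KO1 to CBFB ratio was 1.745 for TCEAL4, 1.631 for TCEAL3, 1.556 for TCEAL1, 1.508 for BEX3, 1.423 for TCEAL9 and 1.033 for TCEAL8. Past the same log2 limit of 0.32, 5 of 6 members were higher, against 19.3% of 13370 genes, and 0 were lower, against 21.7%. The RUNX1_KO2 to CBFB ratio was 2.082 for TCEAL4, 1.975 for TCEAL3, 1.539 for BEX3, 1.535 for TCEAL9, 1.416 for TCEAL1 and 1.062 for TCEAL8. Again 5 of 6 were higher, against 27.2% of 12956 genes, and 0 were lower, against 26.4%. TCEAL8 was the member left within the limit in both. BEX5, whose mean was under 10 in the CBFB table, had ratios of 2.215 and 2.86.

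These ratios come from 2 experiments, so the experiment, the WT libraries and the deleted gene cannot be told apart. The median ratio of all genes before centring was 0.8538 (log2 -0.23) and 0.7893 (log2 -0.34), and without the centring 4 and 2 of the 6 members were past the limit on the higher side. The share of all genes past the limit without centring is not given, so nothing is read from those 2 counts. Both RUNX1 tables were set against 1 CBFB table and are labelled with the same WT, so the 2 counts are not independent of each other.

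**Figure D4:**
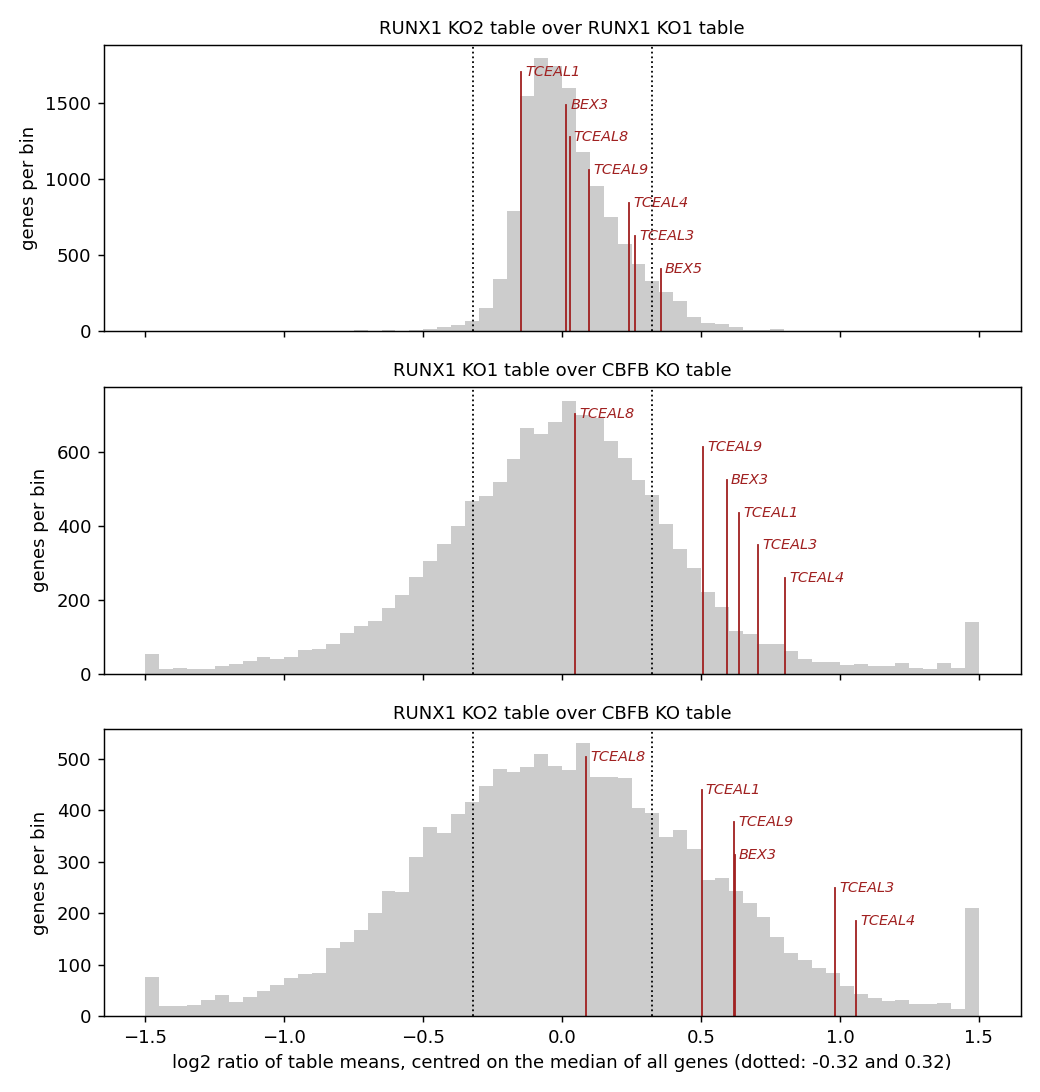
Grey bars count all genes by the log2 ratio of their means in 2 tables, after centring on the median of all genes, for RUNX1_KO2 over RUNX1_KO1 (top), RUNX1_KO1 over CBFB (middle) and RUNX1_KO2 over CBFB (bottom), with genes beyond the axis put in the end bars. Red lines are the members, at heights set only for legibility, and dotted lines mark a log2 ratio of -0.32 and 0.32. In the lower panels 5 of 6 members lie to the right of the right dotted line, and in the top panel 1 of 7 does.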

How the data were processed

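RNA was sequenced from the 18 libraries of MCF10A cells described above. The submitters' processing notes name Trimmomatic, STAR, DESeq2 and hg19, while versions, read counter and annotation are not given in the sources used here. An mRNA library kit is named in the labels, whereas the study's methods describe ribosomal RNA depletion, and the sources used here do not settle which was done. The 3 tables that the authors deposited hold, per gene, a signal value (the authors' mean of normalized counts over knockout and WT libraries) and the authors' comparison of knockout with WT (log2 fold change, standard error, test statistic, p-value and adjusted p-value). The comparison columns were not used. The tables hold no column per library, so no test was made.

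The genes and lists were chosen with earlier results of these data known, and the epithelial, vessel and blood markers were added after the tables were read. By the rule for named genes these were the 10 members, the other TCEAL genes, at most 3 of the highest of each list and the targeted genes. The markers, NGFR, RAB40A, ARMCX2 and ARMCX4 are named outside it, after their values or promoter matches were seen. Means were scaled to each table's sum and to the longest GENCODE release 29 transcript, which covered 98.46 to 98.56% of genes. Ratios required means of at least 10 in both tables and were read against a log2 limit of 0.32 in either direction. Promoters came from RefSeq on GRCh38.p14, and no coordinate was converted. Protein sequences were not used here. Python 3.11.15, pandas 2.3.3, numpy 2.4.6, scipy 1.17.1 and matplotlib 3.10.9 were used. Of the calculations, only the centred ratio was tested on simulated data.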

Additional observations from a re-analysis of the deposited data

How the results depend on the processing

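No paired analysis was possible because the tables hold no value per library, and for the same reason no replicate could be left out. The count of members past a log2 ratio of 0.32 in the RUNX1_KO2 against the RUNX1_KO1 table was 1, and it was 0 without centring, 0 with scaling by the sum of means, 0 with a minimum mean of 100 and 0 with a 1.5-fold limit. For RUNX1_KO2 against CBFB the count was 5, and 2 without centring. The share of all genes past the limit is given above for the main setting alone, so counts at other settings are not read against it. Members above the median level in the CBFB table numbered 6, and 3 without length. They numbered 4 with the median transcript length and 5 against genes with a mean of at least 10. Members with the RUNX motif numbered 3, and 1 with TGTGGT alone, for which the share of windows fell from 19.6% to 13.1%. That share was 16.3% with only the 250 bases before the start. The settings with other ratio limits and scalings for the RUNX1 against CBFB tables were added after seeing the data. The cause of these differences was not tested. Depth limits BEX2, at about 6 normalized reads a table, and BEX5.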
